A study of Drosophila melanogaster with 16 samples.

Results

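The acid phosphatase genes *CG9451*, *CG9452*, *CG9449* and *Acph-1* were followed through hearts of 4 fly genotypes. All probesets (sets of short probes that together read 1 transcript) whose only gene symbol was 1 of these names were taken, which gave 5 probesets of 4 genes among 18769 probesets. The probesets were 1636526_at of *CG9451*, 1632348_at of *CG9452*, 1640265_a_at of *Acph-1*, and 1628150_a_at and 1633200_at of *CG9449*. The last 2, called its dimmer and its brighter probeset below, were kept apart. The genes were chosen from results of these same arrays, with their genotype differences already known, so their values are described below and no p-value is given for them.

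RNA of 30 pooled hearts per array from 3-week-old flies was measured on 16 Affymetrix arrays. The *sei* hearts (n = 5) carried the chemically induced allele *sei* ts1, which has a stop codon ahead of the membrane-spanning region of the hERG-type potassium channel, and their control was Canton-S, here *Wt* CS (n = 5). The *KCNQ* hearts (n = 3) came from an imprecise excision of a P element, named KCNQ370 in the methods and KCNQ37 in the genotype label, that leaves a stop codon in another potassium channel gene. Their control was the precise excision line KCNQ97 in a w1118 background, here *Wt* PE (n = 3). Both controls were thus different strains, and each mutant line stands for 1 allele of its gene. All flies were kept at 25 °C without drug treatment, and the sex of the dissected flies is not given in the sources used here. The question of the arrays was which transcripts differ between hearts mutant for each channel and their own control.

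Acid phosphatases release phosphate from phosphate esters at low pH. *Acph-1* encodes the classical lysosomal acid phosphatase of *Drosophila*, whose variants have long served as a genetic marker. *CG9449*, *CG9451* and *CG9452* encode predicted enzymes of the histidine acid phosphatase family, to which the lysosomal and prostatic acid phosphatases of mammals belong. Lysosomes use such enzymes, with proteases, glycosidases and lipases, to break down material delivered by endocytosis and autophagy.

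Array medians lay between 3.36 and 3.62 on the log2 scale, and the mean correlation of an array with the others of its genotype between 0.950 (*sei* replicate 5) and 0.984. The *sei* transcript was lower in *sei* hearts (3.89 to 5.25) than in *Wt* CS hearts (5.31 to 6.03) with no overlap, and *KCNQ* itself was not analysed here. *Hand*, a cardiac transcription factor, was at 11.83 to 12.43 on every array, and *tin*, *Mef2*, *Mhc* and *wupA* were not analysed here. Array names place the arrays in 3 runs, a reading of the names alone, and no source used here states that these were batches. The 2 excision-line genotypes lie wholly in run A, together with replicates 4 and 5 of *Wt* CS and of *sei*. The first 2 *Wt* CS arrays form run B. Run C has the first 3 *sei* arrays but only replicate 3 of *Wt* CS. Some arrays share a sample code (*Wt* CS 2 with 3, *sei* 2 with 5, *sei* 3 with 4), so such arrays may hold 1 RNA. The errors below may then rest in part on technical spread only.

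*CG9451* separated all 4 genotypes. The 5 *Wt* CS arrays, in the order of their replicate numbers, had log2 intensities of 7.29, 6.71, 8.24, 7.46 and 7.82. The *sei* arrays had 10.02, 10.37, 10.02, 9.73 and 9.57. *Wt* PE arrays had 9.33, 8.87 and 9.40, and *KCNQ* arrays 8.42, 8.64 and 8.35. No 2 genotypes overlapped, and the order ran from *sei* through *Wt* PE and *KCNQ* down to *Wt* CS. The narrowest step was that from the lowest *KCNQ* array, 8.35, to the highest *Wt* CS array, 8.24.

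*CG9451* in *sei* hearts stood 2.44 ± 0.25 log2 units (limma SE, 95% interval 1.91 to 2.96) above *Wt* CS, which is 5.42-fold. This was the 164th highest difference of the 18769 probesets. In *KCNQ* hearts it lay 0.73 log2 units under *Wt* PE (log2 difference −0.73 ± 0.32, interval −1.41 to −0.053). The mutants therefore differed from their controls in opposite directions, and the *sei* difference less the *KCNQ* difference was 3.17 ± 0.40 (interval 2.31 to 4.03). The controls themselves were far apart, with *Wt* PE 1.70 ± 0.29 above *Wt* CS (interval 1.09 to 2.31, 3.25-fold). Set against *Wt* PE in place of their own control, *sei* hearts were higher by 0.74 in the mean, again without overlap. In run A, which holds every *Wt* PE array but only 2 of the *sei* arrays, the means were closer, 9.65 in *sei* and 9.20 in *Wt* PE.

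**Figure D1:**
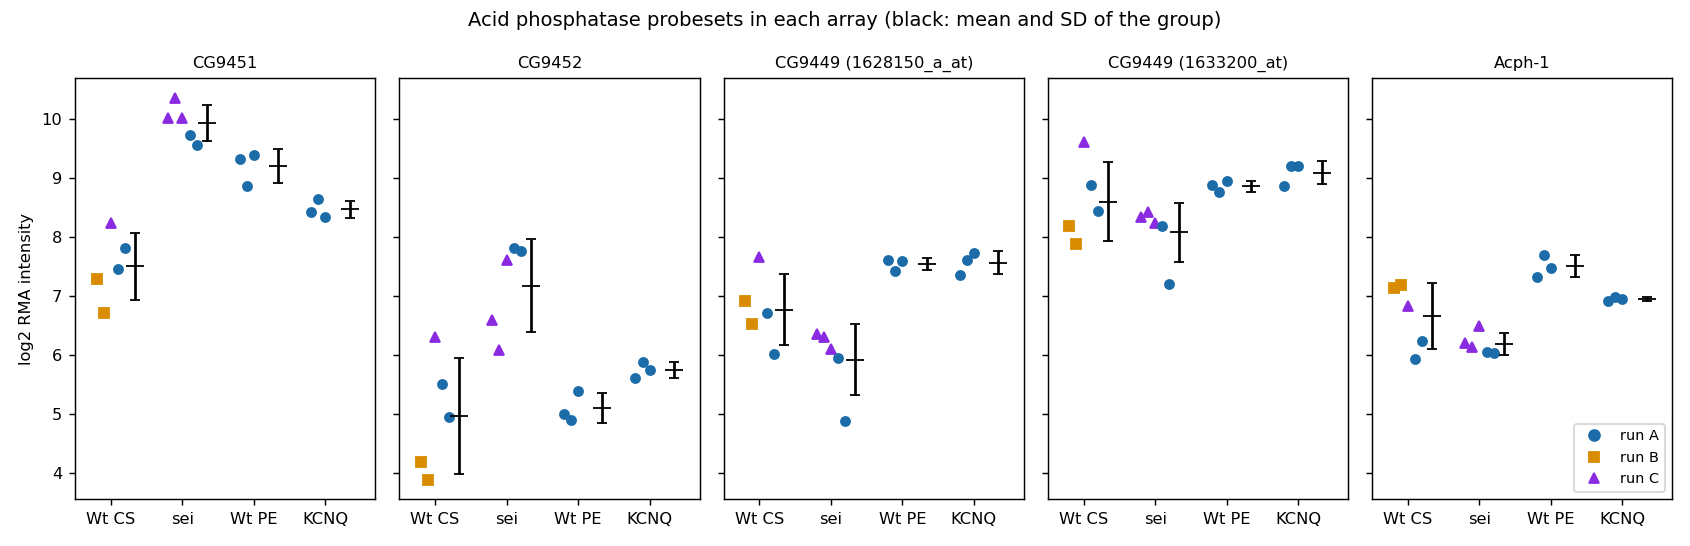
Log2 RMA intensity (vertical axis) of the 5 acid phosphatase probesets in each of the 16 arrays, grouped by genotype, with the marker giving the array run and the black line the group mean with its SD. *CG9451* shows 4 genotypes without overlap, while *CG9452* is highest in *sei* hearts but spread over 3.88 to 6.31 in *Wt* CS.

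*CG9452* also had its highest mean in *sei* hearts, with a wide spread in both groups of the comparison. The *Wt* CS arrays had 4.19, 3.88, 6.31, 5.51 and 4.94. The *sei* arrays had 6.59, 6.08, 7.61, 7.82 and 7.77. The 3 *Wt* PE arrays stood at 5.00, 4.90 and 5.39, and the 3 *KCNQ* arrays at 5.61, 5.88 and 5.75. *sei* overlapped *Wt* CS only through *Wt* CS replicate 3, at 6.31, which lay above *sei* replicate 2, at 6.08. The *sei* arrays lay above every array of *Wt* PE and *KCNQ*.

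The mean of *CG9452* was 7.18 ± 0.79 (SD, n = 5) in *sei* and 4.97 ± 0.99 (n = 5) in *Wt* CS, a log2 difference of 2.21 ± 0.42 (interval 1.31 to 3.11) or 4.63-fold. *KCNQ* hearts were higher than *Wt* PE by 0.65 ± 0.55, with an interval from −0.52 to 1.81 although the groups did not overlap. *Wt* PE and *Wt* CS differed by 0.13 ± 0.49 and overlapped. The *sei* difference of *CG9452* less its *KCNQ* difference was 1.56 ± 0.69 (interval 0.089 to 3.03). Against *Wt* PE the mean of *sei* hearts was higher by 2.08.

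*CG9449*, the third gene of the group, had its lowest mean in *sei* hearts at both probesets. Its dimmer probeset was at 6.92, 6.52, 7.66, 6.72 and 6.01 in *Wt* CS and at 6.36, 6.31, 6.10, 5.94 and 4.88 in *sei* replicates 1 to 5. The *Wt* PE arrays stood at 7.61, 7.42 and 7.60 and the *KCNQ* arrays at 7.35, 7.61 and 7.73. The *sei* arrays reached into the *Wt* CS range but lay under every *Wt* PE and *KCNQ* array. The log2 difference of *sei* from *Wt* CS was −0.85 ± 0.30 (interval −1.49 to −0.22), and −0.59 ± 0.25 without *sei* replicate 5.

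The brighter *CG9449* probeset had the same order of genotype means, from *KCNQ* (9.09 ± 0.20, SD, n = 3) through *Wt* PE (8.86 ± 0.094, n = 3) and *Wt* CS (8.60 ± 0.67, n = 5) to *sei* (8.08 ± 0.50, n = 5), in which neighbours overlapped. It was at 8.19, 7.88, 9.61, 8.88 and 8.45 in *Wt* CS and at 8.34, 8.43, 8.24, 8.19 and 7.20 in *sei* hearts. The *Wt* PE arrays stood at 8.88, 8.76 and 8.95 and the *KCNQ* arrays at 8.87, 9.20 and 9.21. Here the *sei* and *Wt* CS arrays were mixed, with a log2 difference of −0.52 ± 0.29 whose interval, −1.15 to 0.10, included 0. Without *sei* replicate 5 the difference was −0.30 ± 0.27, and without *Wt* CS replicate 3 it was −0.27 ± 0.25. *KCNQ* hearts differed from *Wt* PE by 0.017 ± 0.39 at the dimmer probeset and 0.23 ± 0.38 at the brighter, with overlap at both. *Wt* PE lay above *Wt* CS by 0.78 ± 0.35 (interval 0.046 to 1.51) at the dimmer and 0.26 ± 0.34 at the brighter probeset, also with overlap. The probesets of *CG9449* rose and fell together over the 16 arrays (Pearson r = 0.88, and 0.82 for deviations from the genotype means).

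*Acph-1*, the lysosomal enzyme, had its highest values in *Wt* PE hearts. It was at 7.14, 7.19, 6.83, 5.93 and 6.23 in *Wt* CS and at 6.20, 6.13, 6.49, 6.05 and 6.03 in *sei* hearts. The *Wt* PE arrays stood at 7.33, 7.70 and 7.48 and the *KCNQ* arrays at 6.92, 6.99 and 6.95. The *Wt* PE arrays lay above all others, and the *KCNQ* arrays above all *sei* arrays. *Wt* CS spanned the range of the *KCNQ* and *sei* arrays.

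The *Acph-1* mean of *Wt* PE exceeded that of *Wt* CS by 0.84 ± 0.26 log2 units (interval 0.29 to 1.39). The mean of each mutant lay under that of its own control, with a log2 difference of −0.48 ± 0.22 in *sei* (interval −0.96 to −0.0095) and −0.55 ± 0.29 in *KCNQ* (interval −1.17 to 0.060). Only the *KCNQ* arrays stood clear of their control. The *sei* difference less the *KCNQ* difference was 0.068 ± 0.37 (interval −0.71 to 0.84).

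**Figure D2:**
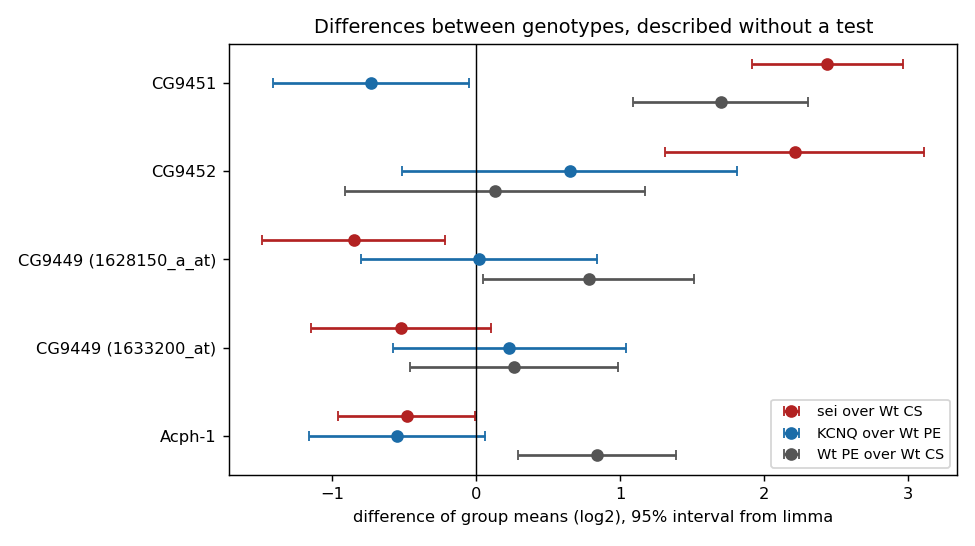
Differences of group means in log2 units (horizontal axis) for each acid phosphatase probeset, with 95% intervals from limma, for *sei* over *Wt* CS, *KCNQ* over *Wt* PE and *Wt* PE over *Wt* CS. *CG9451* and *CG9452* lie at 2.44 and 2.21 in *sei* hearts, and *CG9451* is also 1.70 higher in *Wt* PE than in *Wt* CS.

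At a limma adjusted p under 0.05, 2 of the 5 probesets, those of *CG9451* and *CG9452*, were past the threshold in *sei* hearts, where 11.1% of all probesets were. None was in *KCNQ* hearts, where 0.17% were. *CG9451* alone was past it between *Wt* PE and *Wt* CS (3.67% of all probesets) and for the difference of the mutant effects (1.39%). Groups did not overlap for 1 of the 5 probesets in the *sei* comparison (7.17% of all probesets), for 3 in that of *KCNQ* (10.8%) and for 2 between the controls (10.6%). These counts follow from how the genes were chosen, and nothing is read from them.

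Within the array runs the sizes of the *sei* differences changed from gene to gene. For *CG9451* the *sei* mean exceeded that of *Wt* CS in run A (9.65 against 7.64) and in run C (10.14 against 8.24, a single control array). The *Wt* CS arrays of run B had the lowest mean, 7.0, and with run as a covariate the *sei* difference was 1.96 ± 0.18. For *CG9452* the gap was 2.57 in run A (7.80 against 5.23) and 0.45 in run C (6.76 against 6.31), and with the run covariate it was 1.66 ± 0.41. The *Wt* CS means of *CG9452* were 4.03, 5.23 and 6.31 in runs B, A and C, the last from a single array. In *sei* hearts the order was the reverse, with 7.80 in run A and 6.76 in run C. What lay behind this spread was not tested.

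*CG9449* was lower in *sei* hearts within both runs. At the dimmer probeset the means of *sei* and *Wt* CS were 5.41 and 6.37 in run A and 6.25 and 7.66 in run C. At the brighter probeset they were 7.69 and 8.66 in run A and 8.34 and 9.61 in run C. With run as a covariate the log2 differences were −1.15 ± 0.24 and −1.10 ± 0.21, and in run A alone −0.96 ± 0.36 and −0.97 ± 0.32. For *Acph-1* the *sei* and *Wt* CS arrays of run A were level (6.04 against 6.08), and the higher *Wt* CS values came from runs B (7.17) and C (6.83). Within run A its difference between *Wt* PE and *Wt* CS grew to 1.42 ± 0.18.

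**Figure D3:**
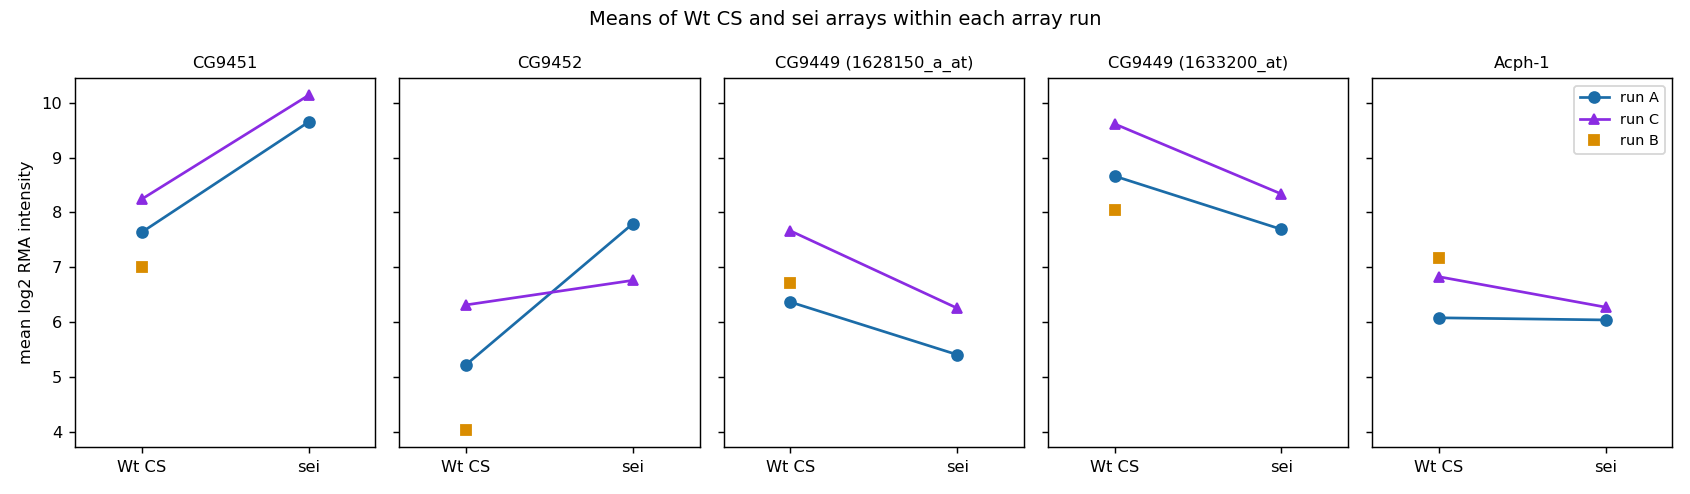
Mean log2 RMA intensity (vertical axis) of the *Wt* CS and *sei* arrays for each acid phosphatase probeset, with a line joining the genotypes of run A, another joining those of run C, and a square for the *Wt* CS arrays of run B. The *CG9452* lines rise by 2.57 and 0.45, and the *Acph-1* line of run A is flat.

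*CG9449*, *CG9451* and *CG9452* are direct neighbours on chromosome arm 3L, with 0 annotated genes between *CG9449* and *CG9451* and 0 between *CG9451* and *CG9452*, and *Acph-1* lies on 3R. Over the 16 arrays *CG9451* and *CG9452* had r = 0.72, and r = 0.37 for deviations from the genotype means. *CG9451* and the brighter *CG9449* probeset had r = −0.13 over all arrays but 0.81 for the deviations, so arrays high in one for their genotype were high in the other. *Acph-1* had r = −0.62 with *CG9452* and 0.74 with the dimmer *CG9449* probeset over all arrays. These correlations are descriptions, since arrays of 1 genotype share their flies' strain and part of them a run. Probe sequences were not used here, so binding of RNA from 1 gene of the group to probes of another was not tested.

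The genes around the 3L group showed no call in *sei* hearts. Of the 12 nearest genes with a probeset, 6 on each side, none was called in *sei* hearts by limma and none reached an unadjusted p of 0.05, with log2 differences from −0.15 to 0.18. They included *Cpr76Ba*, *Cpr76Bb*, *Cpr76Bc* and *Cpr76Bd*, which encode cuticle proteins. In 11 of the 12 the mean log2 intensity was under 5, close to the array medians, which limits what could be detected. In *KCNQ* hearts none was called and 1 had an unadjusted p under 0.05. Between the controls 2 were called, the hairpin RNA locus *hpRNA:CR32207* with 1.33 ± 0.27 (adjusted p = 0.012) and *Dred* with −1.57 ± 0.34 (adjusted p = 0.017) for *Wt* PE over *Wt* CS, each called in 14 of 16 fits that left out 1 array. Within run A, the only run with both controls, the adjusted p of *hpRNA:CR32207* was 0.079.

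Around *Acph-1* 1 of 12 genes was called in *sei* hearts, the tachykinin receptor gene *TkR99D*, which was higher by 2.75 ± 0.56 log2 units (limma adjusted p = 0.0053). It was also higher in *Wt* PE than in *Wt* CS, by 4.54 ± 0.65 (adjusted p = 6.2e-04), and its *sei* difference exceeded its *KCNQ* difference by 4.42 ± 0.92 (adjusted p = 0.021). Its *Wt* CS arrays lay between 1.13 and 1.72, under the lower quartile of their arrays (1.92 to 2.31), so these sizes rest on a control level not known to be above background. Within run A alone its *sei* difference was 0.95 (adjusted p = 0.14). *Vps13B*, of the family of VPS13 lipid transfer proteins, was lower in *Wt* PE than in *Wt* CS (−1.24 ± 0.32, adjusted p = 0.041), a call that held in 7 of 16 fits that each left out 1 array.

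**Figure D4:**
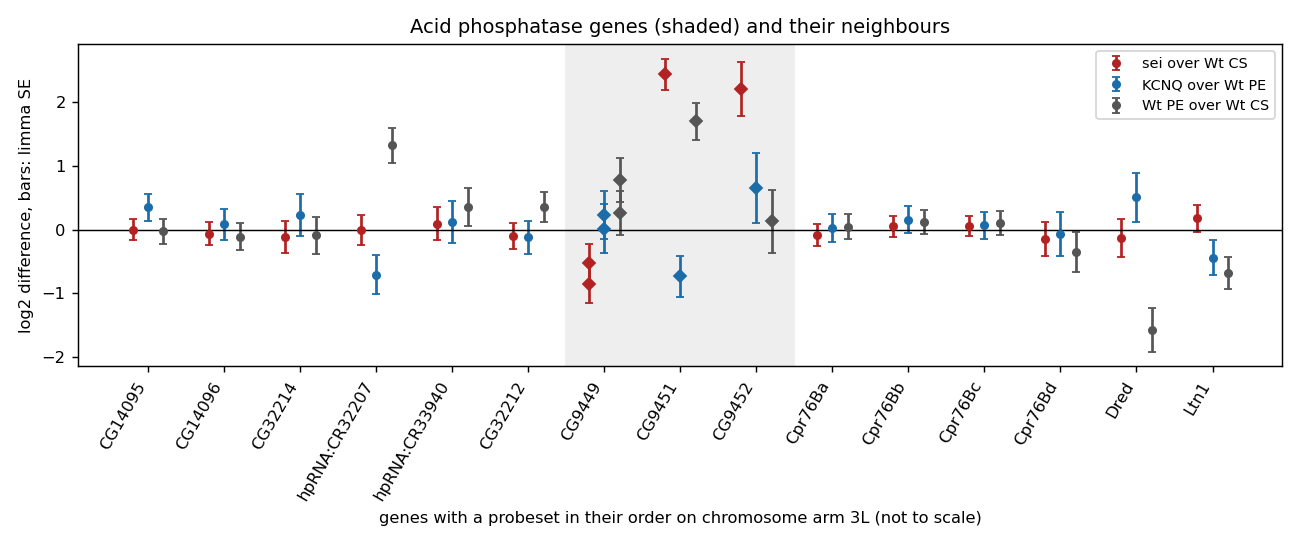
Log2 differences (vertical axis, bars limma SE) of *CG9449*, *CG9451* and *CG9452* (shaded, diamonds) and of the 6 nearest genes with a probeset on each side (circles), in gene order on 3L and not to scale. The red *sei* values of the neighbours lie between −0.15 and 0.18, beside 2.44 and 2.21 for *CG9451* and *CG9452*.

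Of the other genes listed as acid phosphatases, 6 of 9 had a probeset of their own, and 3 of these 6 differed between *sei* and *Wt* CS hearts, where 11.1% of all probesets were called. *Argp*, listed as CG31469 and encoding a protein arginine phosphatase of the low-molecular-weight phosphatase family, lay at 8.96 to 9.79 in *sei* and at 5.89 to 7.18 in *Wt* CS hearts. It was higher by 2.76 ± 0.27 log2 units (limma adjusted p = 9.2e-06), without overlap. *CG14297* was higher by 2.09 ± 0.43 (adjusted p = 0.0056), from a low level of 2.37 to 3.97 in *Wt* CS and with overlap, and within run A its adjusted p was 0.12. *CG6656* was lower by 1.15 (log2 difference −1.15 ± 0.16, adjusted p = 2.1e-04), at 6.32 to 6.89 in *sei* and 7.57 to 8.12 in *Wt* CS hearts.

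*CG6656* took opposite directions in the 2 mutants. It was 1.02 ± 0.20 higher in *KCNQ* than in *Wt* PE hearts without overlap (adjusted p = 0.065), and the difference between the mutant effects was −2.17 ± 0.26 (adjusted p = 1.9e-04). It was also lower in *Wt* PE than in *Wt* CS (−1.10 ± 0.18, adjusted p = 0.0023). For *Argp* the *sei* difference exceeded the *KCNQ* difference by 1.95 ± 0.45 (adjusted p = 0.040). That call was past the threshold in 6 of 16 fits that each left out 1 array, and its adjusted p reached 0.14.

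The remaining 3 genes were not called in *sei* hearts. *CG15385* differed by −0.92 ± 0.31 (adjusted p = 0.068) and *Mipp1*, an inositol polyphosphate phosphatase, by −0.22 ± 0.26 (adjusted p = 0.68). *CG1637*, of the purple acid phosphatases, differed by −0.080 ± 0.15 at its brightest probeset (adjusted p = 0.82), but its probeset 1624797_at was lower by 1.17 (log2 difference −1.17 ± 0.23, adjusted p = 0.0041). Its 3 probesets thus disagreed. In *KCNQ* hearts none of the 6 was called, and *Argp* and *CG6656* had an unadjusted p under 0.05.

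Alkaline phosphatases release phosphate at high pH. Of 13 measured genes of this family 1 was higher and 1 lower in *sei* hearts. *Alp12* was higher by 1.26 ± 0.32 (adjusted p = 0.017), and within run A its adjusted p was 0.18. *Alp4*, known from the Malpighian tubule, was lower by 1.73 (log2 difference −1.73 ± 0.35, adjusted p = 0.0053). Summed intensities of 5 Malpighian tubule markers, of which 2 were called lower, were 1726 to 2247 in *sei* and 2102 to 2832 in *Wt* CS hearts. Most of this linear sum was *Tret1-1* (mean log2 11.07), which was not called in *sei* hearts (−0.24 ± 0.14, limma adjusted p = 0.34). The part of these markers in the *Alp4* difference was not tested.

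Of 29 measured lysosomal hydrolase genes 1 was higher in *sei* hearts, 2 were lower and 26 were not called. The 3 calls are 10.3% of the list, beside 11.1% of all probesets, and the median log2 difference was 0.047 beside −0.020 over all probesets. The lipase gene *Lip4* was higher by 1.07 ± 0.17 (adjusted p = 6.5e-04). It was also higher in *Wt* PE than in *Wt* CS, by 0.96 ± 0.19 (adjusted p = 0.0095). The beta-galactosidase gene *Gal* was lower in *sei* hearts (−1.47 ± 0.30, adjusted p = 0.0059). *Ppt1*, encoding palmitoyl-protein thioesterase, was also lower in *sei* hearts (−0.57 ± 0.16, adjusted p = 0.031, and 0.17 within run A). The call of *Ppt1* held in 12 of 16 fits that each left out 1 array. In *KCNQ* hearts 1 of the 29 was called, *Ect3*, another beta-galactosidase gene, at 6.19 to 6.51 against 3.15 to 3.86 in *Wt* PE (2.95 ± 0.49, adjusted p = 0.016). Of its fits that each left out 1 array, 11 of 16 kept the call.

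*Ect3* also showed a strain difference, with −3.06 ± 0.44 for *Wt* PE over *Wt* CS (adjusted p = 6.6e-04), and its *sei* difference less its *KCNQ* difference was −2.94 ± 0.62 (adjusted p = 0.023). Among 12 measured genes of lysosomal membrane and trafficking 1 was called in *sei* hearts, *Npc2a*, a sterol-binding protein of the lysosome lumen. It was lower by 0.62 (log2 difference −0.62 ± 0.14, adjusted p = 0.010, and 0.16 within run A). *Npc2a* was also lower in *Wt* PE than in *Wt* CS (−0.70 ± 0.16, adjusted p = 0.023, and 0.051 within run A). Over the 4 lists together 9 of 60 genes, or 15%, were called in *sei* hearts, 4 higher and 5 lower, beside 11.1% of all probesets. In each list a gene was read at its brightest probeset, while the 11.1% covers every probeset, dim ones included. These shares are therefore not strictly alike, and nothing is read from the gap. In *KCNQ* hearts 1 of 60 was called.

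**Figure D5:**
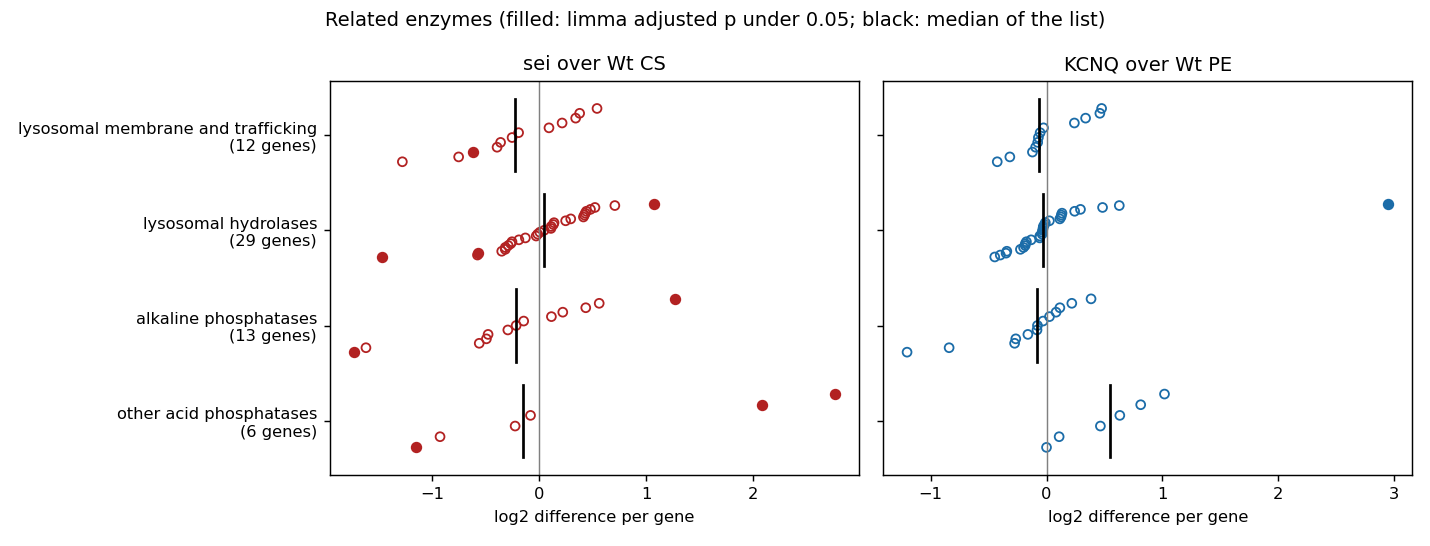
Log2 difference per gene (horizontal axis) for 4 lists of related enzymes and lysosomal genes in *sei* over *Wt* CS (left) and *KCNQ* over *Wt* PE (right), with filled points for a limma adjusted p under 0.05 and a black line at the list median. In *sei* hearts 9 of 60 genes are filled, on both sides of 0, and in *KCNQ* hearts only *Ect3*.

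Transcripts of other cell types also moved with genotype. The summed intensity of 7 hemocyte markers (*Hml*, *NimC1*, *Pxn*, *He*, *eater*, *crq* and *Sr-CI*) was 3073 to 4202 in *sei* and 6374 to 8782 in *Wt* CS hearts. Of the 7, each read at its brightest probeset, 5 were called lower and *NimC1* higher. The probesets of *Pxn* disagreed. Its brightest (mean log2 7.51) was lower in *sei* hearts (−2.50 ± 0.43, limma adjusted p = 0.0016). Its dimmer one (mean log2 2.95) was higher there (1.11 ± 0.27, limma adjusted p = 0.014). In pooled hearts fewer cells of a type and less RNA per cell cannot be told apart. In *KCNQ* hearts the hemocyte sum was 4922 to 5764 and in *Wt* PE 6166 to 6308. Each mutant thus lay under its own control in this sum, as it did in the mean of *Acph-1* over all arrays. Within run A the hemocyte sums were 4057 and 4202 in *sei* replicates 4 and 5. They were 8782 and 7539 in *Wt* CS replicates 4 and 5. The *Acph-1* means of *sei* and *Wt* CS were level in that run (6.04 against 6.08). Between the controls the directions were opposite. *Wt* PE lay under *Wt* CS in the hemocyte sum, but its *Acph-1* mean was higher by 0.84 log2 units.

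The summed intensity of 9 fat body markers overlapped between *sei* (16297 to 22051) and *Wt* CS hearts (14858 to 23076). The brightest in this linear sum were *apolpp*, *Desat1* and *FASN1* (mean log2 12.21, 12.07 and 11.72). These were among 8 markers not called in *sei* hearts. *Obp99b* was called lower (−2.76 ± 0.40, limma adjusted p = 4.1e-04). The sum of 6 heart muscle markers was 4633 to 5134 in *sei* and 5278 to 6738 in *Wt* CS hearts. Most of this linear sum was *Hand* (mean log2 12.14), which was not called in *sei* hearts (−0.22 ± 0.13, limma adjusted p = 0.36). Of the 6 markers 1, *Prm*, was called lower. The 5 male accessory gland and testis markers summed to 260 to 987 in *sei* and to 36.9 to 267 in *Wt* CS hearts, and 8 gut markers to 193 to 597 and 374 to 1764. In *Wt* PE and *KCNQ* hearts the male sums were 211 to 889 and 224 to 1037. The part of these markers in the levels of *CG9451*, *CG9452*, *CG9449* and *Acph-1* was not tested.

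The transcripts most like each acid phosphatase were found by Pearson r over the 16 arrays, a description of likeness among arrays that share genotypes and runs. For *CG9451* these were *CG34136* (r = 0.97), *Hf* (0.96), *CG14990* (0.95), *Ance-4* (0.94), of the angiotensin-converting enzyme family, and *Npc2g* (0.94), of the family of secreted sterol-binding Npc2 proteins. For deviations from the genotype means these 5 kept r of 0.75 to 0.95. For *CG9452* they were *CG30002* (0.94), *Nepl15* (0.93), a neprilysin-like gene, *CG2233* (0.93), *CG30026* (0.92) and the serpin gene *Spn42Da* (0.91). None of these 10 lies beside the 3L group among its 12 neighbours.

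The 5 transcripts closest to the dimmer *CG9449* probeset were *CG3651* (r = 0.92), *SNRPG* (0.91), a spliceosomal protein gene, the cytochrome P450 gene *Cyp318a1* (0.90), *CG15098* (0.90) and *osi* (0.89). For the brighter probeset they were *CG1785* (0.86), the cytochrome P450 gene *Cyp6d2* (0.85), *CG9497* (0.85), *CG7079* (0.83) and *Rtc1* (0.82). The lists of these 2 probesets had 0 genes in common although they read 1 gene.

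*Acph-1* was closest to *Atg4b* (r = 0.95), encoding a protease of autophagy, and to *NimC2* (0.95), of the Nimrod receptors of hemocytes. They were followed by *Vha100-2* (0.95), a subunit of the proton pump that acidifies lysosomes, *CG14621* (0.95) and *CG12567* (0.94). For deviations from the genotype means these 5 kept r of 0.84 to 0.94. *NimC2* had log2 differences of −1.57 in *sei*, −1.29 in *KCNQ* and 2.22 in *Wt* PE over *Wt* CS. Those of *Acph-1*, in the same order, were −0.48, −0.55 and 0.84. The 7 hemocyte markers above were split between the controls. Higher in *Wt* PE hearts were 3 of them, *NimC1* (log2 difference 3.48), *He* (0.37) and *crq* (0.36). *Hml* (−1.47), *Pxn* (−1.33), *Sr-CI* (−0.85) and *eater* (−0.81) were lower there.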

How the data were processed

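RNA of 30 pooled hearts of 3-week-old flies was hybridized per array to 16 Affymetrix Drosophila Genome 2.0 arrays, after fat and trachea had been suctioned away. After quality control in affyQCReport the authors applied RMA through AltAnalyze (versions not given in the sources used here) and deposited 1 linear intensity per probeset and array. Their log2 was taken here. RMA shrinks differences at low intensity, and precision is limited by how many arrays there are.

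Of 18952 probesets, 183 platform controls were left out and 18769 tested. Of these, 13647 had 1 gene symbol, 402 several and 4720 none, and 13544 were matched to the gene table of Release 6 plus ISO1 MT, used for names and gene order. limma 3.58.1 in R 4.3.3 fitted 4 group means (12 residual and 3.68 prior degrees of freedom), and Benjamini-Hochberg adjustment ran over all 18769 probesets, with a call at an adjusted p under 0.05. Intervals are 95%. Tests measure only the spread between arrays. The fit was tested on simulated data. Runs and sample codes were read from array names in the study's supplementary data.

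The 4 genes and the gene lists were chosen with earlier results of these data known. Named were these genes, the other listed acid phosphatases, 6 genes with a probeset on each side, up to 4 called genes of each other list by size of the *sei* difference, and the 5 genes most like each probeset. Genes called in other contrasts, and markers, were named after their values were seen. A listed gene was read at its brightest probeset. Alternatives were a second quantile normalization, a common 75th percentile, run as a covariate, run A alone, run C alone, a replicate block, same-code arrays averaged, each array left out, a mean log2 of at least 5, an intensity trend with a robust prior, separate fits, and all probesets of listed genes.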

Additional observations from a re-analysis of the deposited data

Results flagged for a closer look

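*CG9449* in *sei* replicate 5 lay apart from the other *sei* arrays at both probesets, at 4.88 beside 5.94 to 6.36 for the dimmer and at 7.20 beside 8.19 to 8.43 for the brighter, by Dixon's gap test in 10 groups of 5 arrays. This array also had the lowest mean correlation with its group, 0.950, and chance alone gives such a gap now and then. *CG9451* was higher in every *sei* array than in *Wt* CS and lower in every *KCNQ* array than in *Wt* PE, a difference between the effects of 3.17 log2 units that is given as a description, without a p-value, because the gene was chosen from these arrays.

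The limma effect in *sei* differed from that in *KCNQ* hearts for *CG6656* (−2.17, adjusted p = 1.9e-04), *Argp* (1.95, adjusted p = 0.040), *Ect3* (−2.94, adjusted p = 0.023) and *TkR99D* (4.42, adjusted p = 0.021, with *Wt* CS levels under the lower quartile of their arrays). Fits that each left out 1 array kept the call in 16 of 16 for *CG6656*, 6 of 16 for *Argp*, 11 of 16 for *Ect3* and 13 of 16 for *TkR99D*.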

How the results depend on the processing

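Dim probesets near the array medians limit what could be seen, and run C held a single *Wt* CS array. No value of the 4 genes changed sign where its interval left out 0. With run as a covariate *CG9451* gave 1.96 in *sei* and 2.69 for the effect difference, the brighter *CG9449* probeset −1.33 for the effect difference, and *Acph-1* 1.31 between the controls. Run A alone gave 2.74 for the effect difference of *CG9451*, −1.20 for that of the brighter *CG9449* probeset, and −0.039 in *sei*, 1.42 between the controls and 0.51 for the effect difference of *Acph-1*. Run C alone gave 1.89 for *CG9451*, 0.45 for *CG9452* and −1.28 for the brighter *CG9449* probeset in *sei*. The causes were not tested.

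Counts of all probesets called depended on the fit. In *sei* hearts (2089) run A alone gave 855, a separate fit 1254 and leaving out 1 array 1321 (without *sei* replicate 1) to 2674. In *KCNQ* hearts (32) the run covariate gave 66 and leaving out 1 array 21 to 52 (without *Wt* PE replicates 1 and 3). Between the controls (689) the covariate gave 3606, run A 2376, averaged codes 1190, a separate fit 340 and leaving out 1 array 322 (without *Wt* PE replicate 2) to 834. For the effect difference (260) the covariate gave 459, averaged codes 495 and leaving out 1 array 179 to 425 (without *sei* replicate 5).

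Of the 24 neighbouring genes, the *sei* call (1) became 3 with the covariate and 0 in run A, the calls between the controls (4) became 7 with the covariate and 1 to 4 when 1 array was left out, and the effect difference (1) became 0 to 1. Of the 60 listed enzymes, the *sei* calls (9) became 5 in run A. The *KCNQ* call (1) became 2 with repeated quantile normalization, the covariate or averaged codes, and 0 to 2 when 1 array was left out. The calls between the controls (5) became 17 with the covariate, 10 in run A and 3 to 6, and the effect difference (3) became 1 to 5. Same-numbered arrays deviated together (r over 0.1) in 3 of 5 *sei* pairs, those whose arrays share a run, and in 0 of 3 *KCNQ* pairs (r = 0.034 to 0.53 and −0.039 to 0.082), so the numbers were not taken to pair the samples. A replicate block gave 2310, 22 and 247 calls in *sei*, *KCNQ* and the effect difference, with the differences of the 4 genes as before. The dimmer *CG9449* probeset passed the threshold in *sei* hearts with the block, the covariate, a second quantile normalization or a common 75th percentile, and between the controls with the covariate or in run A. The brighter one passed it in *sei* hearts and for the effect difference with the covariate. *Acph-1* passed it between the controls with the covariate, run A or the second quantile normalization, and *CG9452* for the effect difference in run A. As the genes were chosen from these arrays, nothing is read from these calls. Other differences of the 4 genes moved by less than the spread between arrays. Over the single genes, levels, correlations and call counts per list, 1126 values kept their call or stayed near the main value. Another 114 lost their call. The remaining 65 were correlations or call counts per list that moved past a set limit, which was not the spread between arrays.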
